A study of Mus musculus with 36 samples.

Results

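The splicing factors named Hnrnp, Srsf and Srrm were described in 36 arrays of mouse cortex, hypothalamus and hippocampus taken after loss of Dicer in adult forebrain neurons. The members were every probe set whose annotation gave a single gene with a symbol starting with 1 of these 3 names, and every probe set of a gene was kept. The rule found 108 probe sets of 34 gene symbols, out of 34958 single-gene probe sets of 18194 genes. The Hnrnp group held 58 probe sets of 19 genes, the Srsf group 33 of 10 genes and the Srrm group 17 of 5 symbols, including Srrm4os, which is named as an antisense RNA of Srrm4. A further 7 probe sets that list a member together with other genes were left out.

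Heterogeneous nuclear ribonucleoproteins (hnRNPs) coat nascent transcripts and often favour exon skipping. The serine/arginine-rich splicing factors (Srsf) bind exonic enhancers and recruit the splicing machinery. Several genes of both families carry poison exons, whose inclusion sends the mRNA to nonsense-mediated decay. Srrm1 and Srrm2 encode large serine/arginine repetitive proteins that act as splicing coactivators in nuclear speckles, and Srrm4 encodes the neural regulator that promotes the inclusion of microexons in neurons. Dicer cuts microRNA precursors into mature microRNAs.

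All mice were C57BL/6J, carried loxP sites in both Dicer alleles (Dicer lox/lox) and a tamoxifen-inducible Cre driven by the Camk2a promoter (Camk2a-CreERT2, Cre+), which is active mainly in excitatory forebrain neurons, and were 8 weeks old at injection. Mice injected with tamoxifen, 10 mg in total over 5 days, are called Dicer cKO. Control mice had the same genotype and received vehicle, so tamoxifen and Dicer loss cannot be told apart. Tissue was collected 4 or 8 weeks later from 3 mice per group, which gave 12 groups. The cortex and hypothalamus groups shared 11 animals. In bulk tissue, fewer cells of a type and less RNA per cell cannot be told apart.

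Values were log2 signals from a 3′ expression array, and levels of different probe sets or tissues are not on a common scale. Within a tissue the level of a probe set was compared between groups, and for probe sets of the same gene the difference within each array was compared between groups, where only its change has a meaning. A change is the mean of the 3 Dicer cKO arrays minus the mean of the 3 control arrays at the same time, on the log2 scale, with its standard error (SE). Probe sets entered the tests where the third-highest of the tissue's 12 arrays was over a signal floor of 4.30 in cortex, 4.88 in hypothalamus and 4.64 in hippocampus. Of the 108 members, 102 passed in cortex, 103 in hypothalamus and 102 in hippocampus, and all 34 symbols had at least 1 probe set that passed in each tissue. The members that passed in no tissue were 1431349_at of Hnrnpab, 1458139_at of Hnrnpc, 1445594_at of Hnrnpl and 1457136_at of Srsf1. Probe set 1459880_at of Hnrnpab and 1442330_at of Srrm1 passed only in hypothalamus, and 1455740_at of Hnrnpa1 passed in cortex and hippocampus but not in hypothalamus. A probe set was called at a false discovery rate (FDR) of 15%, by limma with adjustment over all probe sets that passed the floor in that tissue.

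The arrays were checked before the members were read. For Dicer1 in cortex at 4 weeks, probe set 1460571_at changed by 0.10 (SE 0.08) and 1427941_at by 0.45 (SE 0.19), neither lower in Dicer cKO. Where these probes lie relative to the deleted exon is not known here, so they do not check the labels. Among the arrays labelled hippocampus, 11 of 12 read low for some markers of hippocampal excitatory neurons. Slc17a7, the vesicular glutamate transporter of these neurons, read 3.74 to 4.41 in those 11 arrays and 7.56 in Dicer cKO replicate 1 at 8 weeks, and Neurod6, a transcription factor of the same neurons, read 2.68 to 3.31 against 9.05. Other listed markers of excitatory neurons were lower in the 11 arrays but well over the floor. Camk2a 1457311_at read 9.78 to 10.51 against 11.81, and Neurod2 1435411_at 7.32 to 7.80 against 9.62. These 12 arrays are therefore called the arrays labelled hippocampus.

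The promoters of the called members that have a single annotated start in the RefSeq table (GRCm38.p6) are shown to set side by side the starts of genes called in opposite directions. Each run is the 100 bases before the start, 5′ to 3′ on the gene's strand, and capitals mark matches, on either strand, to the 5 short motifs spelled out after the sequences, none of which contains another.
Srsf6, chr2:162931408-162931507, plus strand: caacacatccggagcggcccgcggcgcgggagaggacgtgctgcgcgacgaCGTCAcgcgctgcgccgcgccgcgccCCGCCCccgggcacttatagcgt
Srrm1, chr4:135353147-135353246, minus strand: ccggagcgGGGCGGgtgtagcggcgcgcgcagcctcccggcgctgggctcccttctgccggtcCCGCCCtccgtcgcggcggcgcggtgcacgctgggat
Srrm4, chr5:116591818-116591917, minus strand: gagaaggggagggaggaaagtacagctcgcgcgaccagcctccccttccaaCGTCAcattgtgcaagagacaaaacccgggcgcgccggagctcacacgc
The run of Srsf6 had a GC content of 77% with 21 CpG sites, that of Srrm1 81% with 18, and that of Srrm4 63% with 9. Hnrnph1 has 5 annotated starts and Srrm2 has 2, so no run was printed for them. Over the 250 bases before the start, 44 windows of 31 member genes were compared with all 32851 windows of the table. GGGCGG, the GC box, lay in 32 of the 44 windows, against 32.7% of all. TGACG, part of the cAMP response element, lay in 23, against 17.8%, and TGCGCA, part of the NRF1 motif, in 11, against 6.43%. CCAAT lay in 21, against 33.8%, and the TATA box TATAAA in 3, against 12.4%. Several windows belong to the same gene and overlap, and a match is a string of letters, not a site of binding.

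The first comparison asked how the members differed between Dicer cKO and control cortex at 4 weeks. Srsf6 was called higher on 1 probe set, and 1 probe set each of Hnrnph1, Srrm1, Srrm2 and Srrm4 was called lower. These were 5 of the 102 members tested, 1 higher and 4 lower, beside 4.48% of all 26246 probe sets called (3.75% higher and 0.732% lower), so the share of members called, 4.90%, was close to the background. At an unadjusted p under 0.05, 23 members passed (12 higher and 11 lower) beside 21.1% of all, and in 17 members the 3 Dicer cKO and 3 control arrays did not overlap, beside 18.7% of all.

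**Figure D1:**
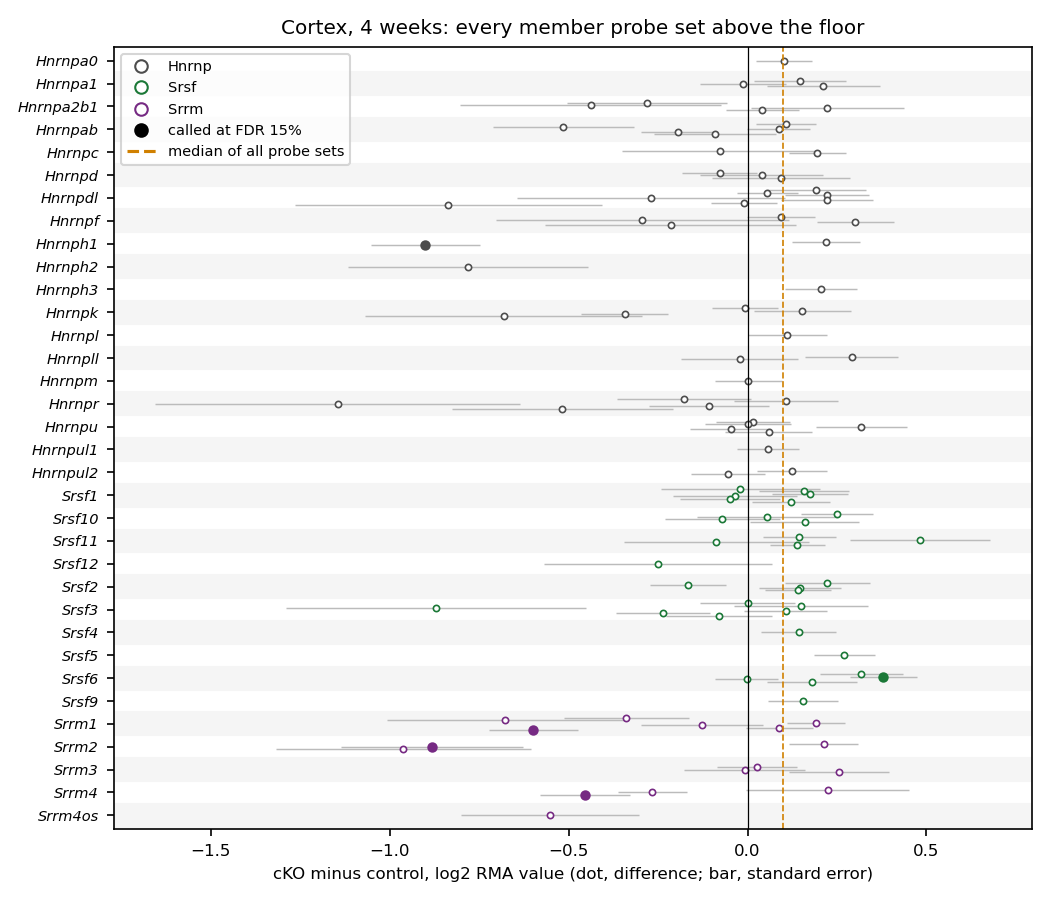
Change in cortex at 4 weeks (Dicer cKO minus control, log2) for every tested member, arranged by gene, with bars of 1 standard error. Filled points were called at an FDR of 15% and the dashed line is the median change of all probe sets, 0.10; most genes have points on both sides of 0.

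Srsf6, an SR protein, read 9.20, 9.29 and 9.25 in the control arrays and 9.59, 9.74 and 9.56 in the Dicer cKO arrays with 1416721_s_at. All 3 Dicer cKO arrays lay above all 3 control arrays, a change of 0.38 (SE 0.09, 1.30-fold higher, limma adjusted p = 0.121). At 8 weeks the same probe set read 9.51, 9.25 and 9.38 in control and 9.38, 9.50 and 9.34 in Dicer cKO, where the groups overlapped.

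Hnrnph1 encodes an hnRNP that binds runs of G. Its probe set 1437267_x_at read 5.12, 5.29 and 4.92 in control cortex and 4.27, 4.27 and 4.08 in Dicer cKO cortex. The groups did not overlap and all 3 Dicer cKO arrays lay under the floor of 4.30, so only a bound can be given, at least 1.75-fold lower against the floor, beside a fitted change of -0.90 (SE 0.15, limma adjusted p = 0.0918). At 8 weeks the control arrays read 5.07, 5.07 and 4.98 and the Dicer cKO arrays 5.12, 4.47 and 4.92.

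Srrm1, the splicing coactivator, read 4.53, 4.53 and 4.07 in control and 3.65, 3.81 and 3.87 in Dicer cKO with 1459828_at, a fitted change of -0.60 (SE 0.12, limma adjusted p = 0.0998). Of the 12 cortex arrays 7, all 6 of Dicer cKO and control replicate 3 of 4 weeks, were under the floor, where values have no order. The probe set entered the cortex tests only through control arrays, which favours a lower value in Dicer cKO, so its call is given as a description. Against the floor the bound is at least 1.05-fold lower. Srrm2, its larger speckle partner, read 6.29, 6.36 and 5.75 in control and 4.82, 5.0 and 5.95 in Dicer cKO with 1437638_at, a change of -0.88 (SE 0.25, 1.84-fold lower, limma adjusted p = 0.140). Dicer cKO replicates 1 and 2 were low and replicate 3 lay above control replicate 3, so the groups overlapped.

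Srrm4, the microexon regulator, read 6.59, 6.74 and 6.72 in control and 6.19, 6.04 and 6.45 in Dicer cKO with 1438523_x_at. The groups did not overlap, with a change of -0.45 (SE 0.13, 1.37-fold lower, limma adjusted p = 0.134). At 8 weeks none of the 5 probe sets was called, and their changes were -0.20 (SE 0.15) for Hnrnph1, -0.25 (SE 0.12) for Srrm1, 0.18 (SE 0.25) for Srrm2, 0.12 (SE 0.13) for Srrm4 and 0.03 (SE 0.09) for Srsf6. The calls at 4 weeks depended on the analysis: Hnrnph1 was called in 15 of 23 alternatives, Srrm1 in 11 of 22, Srrm2 in 8 of 22, Srrm4 in 8 of 23 and Srsf6 in 10 of 23, always in the same direction. With arrays centred on their medians limma called 0 members, beside 13 of all probe sets, against 1177 of all as reported. After quantile normalization it called 1 member, beside 81 of all. With a stricter floor that keeps the study's number as probe sets it called 1 member.

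**Figure D2:**
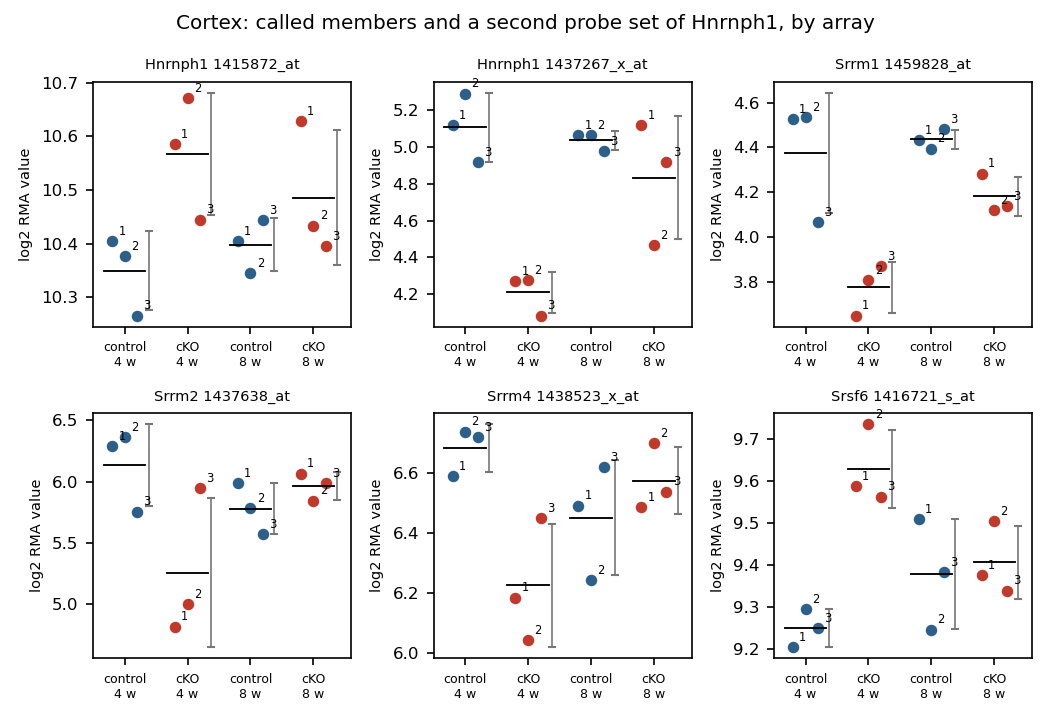
Log2 signal of 6 probe sets in the 12 cortex arrays, by group, with replicate numbers, the mean as a line and the SD as a grey bar (n = 3). The 5 called probe sets are shown with 1415872_at of Hnrnph1, which lay 0.22 higher in Dicer cKO at 4 weeks while 1437267_x_at of the same gene was called lower, with its Dicer cKO arrays of 4 weeks under the floor of 4.30.

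The 3 families sat at different places against the median change of all probe sets, which was 0.10. The median of the 102 members was 0.03, and 56 of them were positive, beside 68.4% of all probe sets. The Srsf probe sets had a median of 0.14 (21 of 32 positive, range -0.87 to 0.48). Of all probe sets, 21.1% passed an unadjusted p under 0.05, and most of those called were higher (3.75% higher and 0.732% lower). Of the 32 Srsf probe sets, 5 passed an unadjusted p under 0.05, all of them higher in Dicer cKO. Srsf5 was the next of them, with 1423130_a_at at 11.22, 11.20 and 11.35 in control and 11.46, 11.65 and 11.47 in Dicer cKO, a change of 0.27 (SE 0.08, limma adjusted p = 0.153) that was not called.

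The Hnrnp probe sets had a median of 0.01 (29 of 54 positive, range -1.14 to 0.32), and of the 10 with an unadjusted p under 0.05, 5 were higher and 5 lower. The sign of this median depended on scaling, at -0.08 with each array centred on its median and -0.02 after quantile normalization. The Srrm probe sets had a median of -0.20 (6 of 16 positive, range -0.96 to 0.25), and stayed negative under both, at -0.28 and -0.26. Of the 8 Srrm probe sets with an unadjusted p under 0.05, 2 were higher and 6 lower. After the called members and Srsf5, the lowest p-values were those of Hnrnpk 1454692_x_at (-0.34, limma adjusted p = 0.173), Hnrnpf 1450963_at (0.30, limma adjusted p = 0.173), Srrm4 1435062_at (-0.27, limma adjusted p = 0.177) and Srsf6 1416720_at (0.32, limma adjusted p = 0.178), none of them called. The Srsf median was 0.05 centred and 0.08 after quantile normalization, and the median of all probe sets was 0.01 and 0.05.

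Probe sets of the same gene often pointed in opposite directions. All 23 genes with at least 2 tested probe sets in cortex at 4 weeks had changes of both signs, against 18 of 23 in cortex at 8 weeks, 18 at both times in hypothalamus, and 13 and 17 in the arrays labelled hippocampus. Beside them, 54.2%, 54.1%, 56.9%, 52.2%, 56.8% and 51.3% of all genes with at least 2 tested probe sets had both signs, but the members had a median of 4 probe sets a gene and all genes a median of 2. Among genes with at least 4, both signs appeared in 14 of 14 members in cortex at 4 weeks and 13 of 14 at 8 weeks, beside 82.5% and 79.4% of all genes. In hypothalamus they appeared in 13 of 14 at both times, beside 81.9% and 78.7%. In the arrays labelled hippocampus they appeared in 9 of 14 at 4 weeks and 11 of 14 at 8 weeks, beside 81.8% and 75.7%. Signs of changes near 0 were counted too. The suffix of a probe set tells what its probes match: _a_at several transcripts of a gene, _s_at transcripts of several genes, and _x_at includes probes shared with other sequences. The members held 62 _at, 21 _a_at, 14 _s_at and 11 _x_at probe sets. Of the 11 _x_at members, 2 had a positive change in cortex at 4 weeks (median -0.22), beside 54.4% of all _x_at probe sets, and both Hnrnph1 1437267_x_at and Srrm4 1438523_x_at were among the called.

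The difference between probe sets of a gene was tested directly, on the difference within each array. In cortex at 4 weeks 1 of 157 member pairs was called, beside 0.0105% of all pairs, and 28 had an unadjusted p under 0.05, beside 20.8% of all. Pairs of a gene share probe sets and are not independent of each other. The median absolute difference between the changes of a pair was 0.232 for members and 0.214 for all pairs.

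The called pair was 1415872_at and 1437267_x_at of Hnrnph1. The within-array difference, first minus second, was 5.29, 5.09 and 5.35 in the control arrays, 6.31, 6.40 and 6.36 in the Dicer cKO arrays, and 5.28 to 5.97 in the 6 arrays of 8 weeks. The Dicer cKO arrays at 4 weeks were above all 9 others. The difference of the changes was 1.12 (SE 0.14, limma adjusted p = 0.0629). Since the 3 Dicer cKO arrays of 1437267_x_at were under the floor of 4.30, its size is not an exact measurement. Probe set 1415872_at itself read 10.40, 10.38 and 10.27 in control and 10.59, 10.67 and 10.45 in Dicer cKO, a change of 0.22 (SE 0.09, limma adjusted p = 0.222) that was not called.

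The next 7 pairs all had a limma adjusted p of 0.189 and were not called. In Srrm1, 1447447_s_at and 1454689_at differed from 1459828_at, the probe set mostly under the floor, by 0.79 (SE 0.13) and 0.69 (SE 0.13). The changes of the 6 tested Srrm1 probe sets ran from -0.68 for 1420935_a_at, through -0.60 for 1459828_at, -0.34 for 1420934_a_at and -0.13 for 1450045_at, to 0.09 for 1454689_at and 0.19 for 1447447_s_at. In Srrm2, 1427902_at, with a change of 0.21, differed from 1437638_at by 1.09 (SE 0.31), and the groups overlapped in this difference. In Srsf3, which encodes the smallest SR protein, 1416151_at differed from 1416152_a_at by 1.02 (SE 0.31).

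The other pairs of these 7 were in hnRNP genes. In Hnrnpa2b1, an hnRNP also known for RNA transport in dendrites, 1420365_a_at differed from 1433830_at by -0.51 (SE 0.12). The difference was 0.57 (SE 0.15) for 1428224_at against 1456698_s_at of Hnrnpdl and -0.42 (SE 0.12) for 1426114_at against 1455855_x_at of Hnrnpab. In the called genes, Srrm4 had changes of -0.45, -0.27 for 1435062_at and 0.22 for 1425774_at, and Srsf6 had 0.38, 0.32 for 1416720_at, 0.18 for 1448454_at and -0.00 for 1447898_s_at. The antisense RNA Srrm4os read 7.26, 7.02 and 7.20 in control and 6.08, 6.50 and 7.24 in Dicer cKO with 1442388_at, a change of -0.55 (SE 0.25, limma adjusted p = 0.231).

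The median member varied between arrays of a group about as much as the median probe set, but in cortex 21 of 102 members were in the top 10% of all probe sets by SD, against 8 of 103 in hypothalamus and 7 of 102 in the arrays labelled hippocampus. The median SD within groups was 0.157 for members and 0.159 for all probe sets in cortex, 0.106 and 0.111 in hypothalamus, and 0.109 and 0.125 in the arrays labelled hippocampus. The cortex members with the largest SD were Hnrnpr 1437526_x_at (0.75), Hnrnpdl 1456698_s_at (0.63), Srsf3 1416152_a_at (0.62), Hnrnpf 1437099_x_at (0.60) and Hnrnpk 1460547_a_at (0.57). In each of these genes another probe set varied less, and changes beyond 0.5 in either direction came from 7 Hnrnp, 1 Srsf and 5 Srrm probe sets.

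Many members that varied most in cortex did so on the same arrays, as did many of all probe sets. The patterns below were chosen after the values were seen and are given without a test. Of the 21 members in the top 10% by SD, 11 had the first pattern, beside 27.4% of all probe sets in that top 10%. The second pattern was held by 5 of the 21, beside 32.6%. In 18 of 102 members, of 12 genes, the 5 lowest arrays were the 3 Dicer cKO arrays of 4 weeks, control replicate 3 of 4 weeks and Dicer cKO replicate 2 of 8 weeks (17.6%, beside 5.7% of all probe sets). By suffix these were 6 of 56 _at members (3.79% of all _at), 5 of 21 _a_at (7.93%), 2 of 14 _s_at (10.1%) and 5 of 11 _x_at (19.9%). The set thus joined 1 control array to the Dicer cKO group. For Srrm1 1459828_at, 1 of the 18, 7 arrays were under the floor, where values have no order, so its 5 lowest are not known. For Hnrnph1 1437267_x_at the gap between the 5 arrays and the others was 0. Both of these were called lower with all arrays.

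Hnrnpr 1437526_x_at, of an hnRNP found in neurites, showed the pattern most. It read 8.41, 8.70 and 6.40 in control and 6.96, 6.63 and 6.49 in Dicer cKO at 4 weeks. At 8 weeks it read 8.53, 8.52 and 8.95 in control and 8.33, 6.89 and 8.08 in Dicer cKO. The 5 low arrays were at least 1.12 under the other 7, and the change of -1.14 (SE 0.51, limma adjusted p = 0.228) was not called.

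Hnrnpk 1460547_a_at, of an hnRNP that binds runs of C, read 11.08, 11.13 and 9.51 in control and 10.07, 9.91 and 9.69 in Dicer cKO at 4 weeks. Srsf3 1416152_a_at read 8.80, 8.76 and 7.19 in control and 7.50, 7.76 and 6.88 in Dicer cKO. Hnrnph2 1415963_at, of the X-linked relative of Hnrnph1, read 9.56, 9.63 and 8.12 in control and 8.34, 8.46 and 8.18 in Dicer cKO. In each, control replicate 3 lay within or near the Dicer cKO values, more than 1 log2 unit under the other controls.

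In 6 of 102 members (5.88%, beside 4.8% of all), of 4 genes, the 3 lowest arrays were Dicer cKO replicates 1 and 2 of 4 weeks and control replicate 3 of 8 weeks. They were 1437638_at and 1438688_at of Srrm2, 1420934_a_at and 1420935_a_at of Srrm1, 1442388_at of Srrm4os and 1452030_a_at of Hnrnpr. Srrm2 1438688_at read 11.67, 11.61 and 11.73 in control and 10.05, 10.28 and 11.80 in Dicer cKO at 4 weeks, and 11.37, 11.10 and 10.55 in control at 8 weeks. Srrm1 1420935_a_at read 8.84, 8.81 and 8.87 in control and 7.59, 7.78 and 9.12 in Dicer cKO at 4 weeks, and 8.35, 8.32 and 7.57 in control at 8 weeks. In both, Dicer cKO replicate 3 of 4 weeks was the highest of its 6 arrays.

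**Figure D3:**
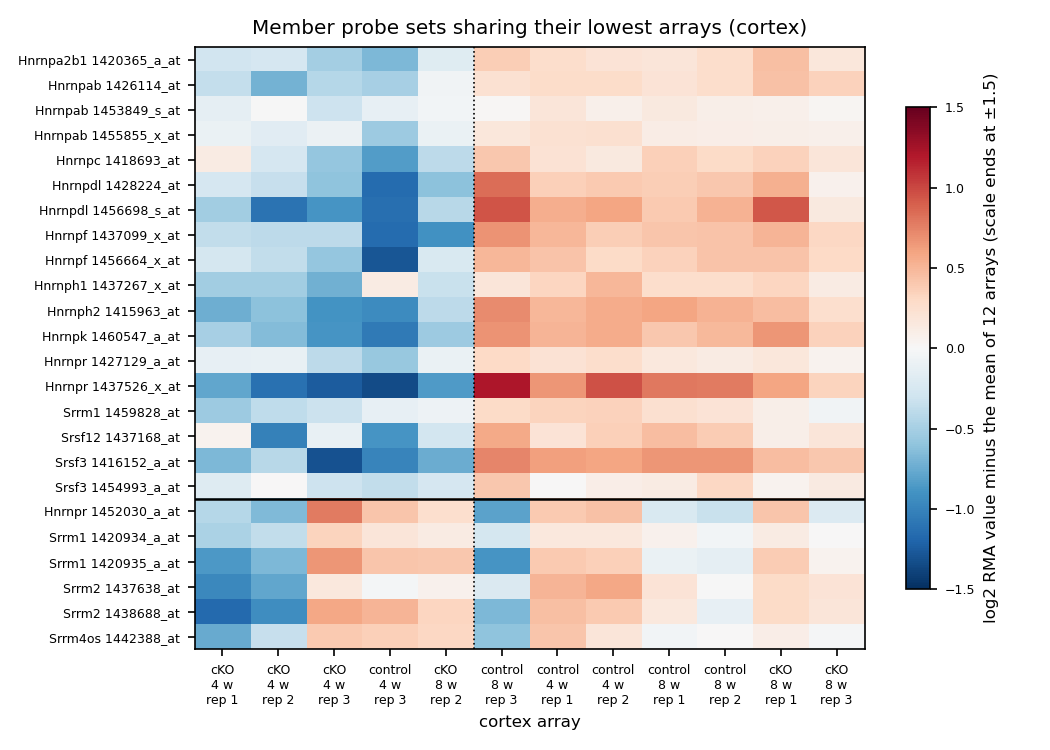
Heat map of 24 member probe sets that share low arrays, in the 12 cortex arrays, coloured by log2 signal minus the probe set's mean over the 12 arrays (scale limited to 1.5 either way). In the upper block of 18 probe sets the Dicer cKO arrays of 4 weeks are low together with control replicate 3 of 4 weeks and Dicer cKO replicate 2 of 8 weeks, and in the lower 6 Dicer cKO replicates 1 and 2 of 4 weeks are low with control replicate 3 of 8 weeks.

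Other measures were read on the same arrays. The 3′ minus 5′ signal of the actin control probe sets, a sign of how far the labelled RNA reached, was 1.07 to 1.18 in the 5 arrays of the first pattern and 1.28 to 1.48 in the other 7. The same measure for Gapdh was 0.04 to 0.20 in those 5 and -0.02 to 0.09 in the others, which overlapped. The score of the core spliceosome genes, the median over probe sets of values centred on each probe set's mean, was 0.05 to 0.09 in those 5 and at most -0.01 in the others. The nuclear RNA Malat1 (1418188_a_at) read 7.81, 8.09 and 11.3 in Dicer cKO at 4 weeks against 12, 11.7 and 11.1 in control, and 10.9, 10.6 and 9.49 in control at 8 weeks. Of the 7 Malat1 probe sets, 3 had the arrays of the second pattern as their 3 lowest and 4 did not. Among the 4, 1427285_s_at read 7.74, 7.76 and 7.77 in Dicer cKO against 7.64, 7.15 and 7.14 in control at 4 weeks. Their part in the members' values was not tested.

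Markers of other cells moved with the groups too. The leptomeninges list of 15 genes scored 0.33 to 0.45 in Dicer cKO and -0.46 to 0.01 in control cortex at 4 weeks. All 19 of its tested probe sets, of 24 listed, were higher in Dicer cKO, 12 were called (median change 0.70), and none of its genes was absent. Hypothalamus markers scored 0.15 to 0.27 against -0.10 to -0.03, with 7 of 8 probe sets higher and 1 called. Cortex markers had 2 of 8 called lower (median -0.13, score -0.21 to 0.00 in Dicer cKO and -0.02 to 0.12 in control), excitatory neuron markers 2 of 15 called lower, astrocyte markers 3 of 25 called higher (median -0.03) and hippocampus markers 1 of 7 called higher. Limma called 0 of 20 microglia, 0 of 26 oligodendrocyte and 0 of 9 endothelial probe sets, with 4, 7 and 0 at an unadjusted p under 0.05, and 3 higher and 3 lower of 44 of nuclear noncoding RNAs. The part of these cells in the members' changes was not tested.

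Single arrays decided how many members were called in cortex at 4 weeks. Without control replicate 3, 36 members were called, 15 higher and 21 lower, beside 39.9% of all probe sets (30.5% higher and 9.38% lower). Without Dicer cKO replicate 3, 25 were called, 13 higher and 12 lower, beside 25.5% of all. Without control replicate 1 or 2, or Dicer cKO replicate 1 or 2, limma called 0 members.

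With 3 arrays left out (control and Dicer cKO replicates 3 of 4 weeks and Dicer cKO replicate 2 of 8 weeks), chosen after the values were seen, 52 members were called, 24 higher and 28 lower, beside 55.4% of all and 14.9% of all lower. By family, without control replicate 3, the calls were 5 higher and 14 lower for Hnrnp, 7 and 2 for Srsf, and 3 and 5 for Srrm. Without the 3 arrays they were 9 and 16 for Hnrnp, 11 and 4 for Srsf, and 4 and 8 for Srrm. Most Srsf calls were thus higher and most Hnrnp and Srrm calls lower in both counts. Among all probe sets 30.5% were called higher and 9.38% lower without control replicate 3. Without the 3 arrays 40.5% were called higher and 14.9% lower. The lean of the Srsf calls, 7 and 11 higher of 32 tested, was therefore also that of all probe sets, while the Hnrnp and Srrm calls leaned the other way.

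Members with a shared pattern were chosen for low Dicer cKO arrays, so leaving out control replicate 3, or Dicer cKO replicate 3, puts the remaining Dicer cKO arrays under the controls by that choice, and their calls are given as a description. Of the 18 with the first pattern, 2 were called lower with all arrays, 16 without control replicate 3 and 17 without the 3 arrays, beside 3.07%, 83.4% and 87.5% of the 1496 probe sets of that pattern among all. Of the 6 with the second pattern these counts were 1, 2 and 6, beside 4.52%, 38.3% and 95.2% of 1260. Of the 78 members with neither pattern, 1 higher and 1 lower were called with all arrays, 15 higher and 3 lower without control replicate 3, and 24 higher and 5 lower without the 3 arrays. Beside them, 34% higher and 3.12% lower of all 23490 such probe sets were called without control replicate 3, and 45.2% and 5.99% without the 3 arrays. Without control replicate 3 the change of Hnrnpr 1437526_x_at went from -1.14 to -1.86 (limma adjusted p = 0.0185), that of Srsf3 1416152_a_at from -0.87 to -1.40 (limma adjusted p = 0.0279) and that of Hnrnph2 1415963_at from -0.78 to -1.27 (limma adjusted p = 0.017).

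**Figure D4:**
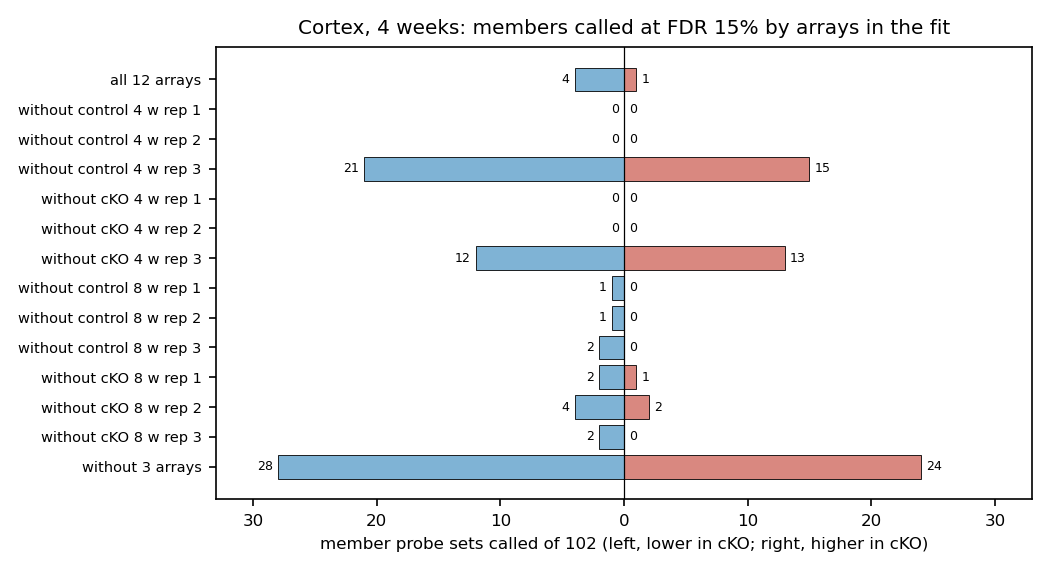
Number of member probe sets called lower (left) and higher (right) in cortex at 4 weeks with all 12 arrays, with each array left out in turn, and without 3 arrays. The count is 5 with all arrays, 36 without control replicate 3, 25 without Dicer cKO replicate 3 and 52 without the 3 arrays.

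In cortex at 8 weeks limma called 0 of the 102 members, beside 0% of all probe sets. An unadjusted p under 0.05 was reached by 5 members, beside 5.09% of all, and an unmoderated equal-variance test also called 0. The lowest p-values were those of Srsf3, Hnrnpu and Hnrnpr, all with a limma adjusted p of 0.864. Srsf3 1438215_at read 4.40, 4.23 and 4.03 in control and 4.68, 4.72 and 4.32 in Dicer cKO, a difference of 0.36, with groups that overlapped. Of its 12 cortex arrays 4 were under the floor, 2 of control at 8 weeks and 2 of Dicer cKO at 4 weeks, which limits every cortex value given for it.

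Hnrnpu 1450849_at, of the nuclear scaffold protein, read 7.10, 6.90 and 6.88 in control and 7.41, 7.40 and 7.0 in Dicer cKO, a difference of 0.31. Hnrnpr 1438807_at read 5.80, 5.57 and 5.32 in control and 6.05, 6.04 and 5.84 in Dicer cKO, a difference of 0.41, and its groups did not overlap. The family medians were 0.00 for Hnrnp, -0.07 for Srsf and 0.09 for Srrm.

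In hypothalamus at 4 weeks limma called 0 of 103 members, beside 0% of all, and 1 member had an unadjusted p under 0.05, beside 2.9% of all. The members with the lowest p-values were Srsf1, Hnrnpul2 and Srsf3, with limma adjusted p = 0.999. Srsf1 1428100_at, of the founding SR protein, read 8.76, 8.93 and 8.68 in control and 8.71, 8.55 and 8.49 in Dicer cKO, a difference of -0.20. Hnrnpul2 1415765_at read 5.75, 5.70 and 5.72 in control and 6.11, 6.07 and 5.84 in Dicer cKO, a difference of 0.28. For Srsf3 1438215_at the difference was 0.22. The groups of Srsf1 overlapped and those of Hnrnpul2 did not.

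In hypothalamus at 8 weeks limma again called 0, beside 0% of all, and 3 members had an unadjusted p under 0.05, beside 6.34% of all. Srrm4 1435062_at read 8.19, 8.44 and 8.20 in control and 8.05, 8.10 and 8.00 in Dicer cKO, a difference of -0.23 (SE 0.09, limma adjusted p = 0.648), and its groups did not overlap. The differences were -0.20 for Srsf10 1449121_at (limma adjusted p = 0.677), an SR protein that acts as a repressor when dephosphorylated, and 0.15 for Hnrnpf 1456664_x_at (limma adjusted p = 0.748).

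In the arrays labelled hippocampus limma called 0 of 102 members at 4 weeks, beside 0% of all, and 5 had an unadjusted p under 0.05, beside 5.86% of all. All 5 were Srrm probe sets, 4 lower and 1 higher, with none from the Hnrnp and Srsf families. Srrm2 1437638_at read 6.56, 6.48 and 6.58 in control and 6.48, 5.96 and 5.90 in Dicer cKO, a difference of -0.42. Srrm1 1450045_at read 6.47, 6.44 and 6.26 in control and 6.29, 6.06 and 6.06 in Dicer cKO, a difference of -0.26. Srrm2 1438688_at read 11.77, 11.68 and 11.73 in control and 11.48, 11.47 and 10.88 in Dicer cKO, a difference of -0.45. The groups of 1438688_at did not overlap, and the limma adjusted p of these 3 was 0.841 or 0.842.

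The low array of Srrm2 1438688_at, Dicer cKO replicate 3, was also the lowest of the 6 for 4 of the 7 Malat1 probe sets, among them 1418188_a_at, which read 10.0, 9.70 and 9.61 in control and 9.63, 9.34 and 7.87 in Dicer cKO. The other 2 of the 5, named after their values were seen, were Srrm4os 1442388_at, with a difference of -0.38 (SE 0.17), and Srrm4 1425774_at, with 0.37 (SE 0.17). The Srrm median was -0.07 at 4 weeks (5 of 16 positive) and 0.14 at 8 weeks (14 of 16 positive).

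At 8 weeks in the arrays labelled hippocampus limma called 0 members, beside 0% of all, and 0 had an unadjusted p under 0.05, beside 5.94% of all. An unmoderated equal-variance test also called 0 here, at 4 weeks and in hypothalamus. The lowest p-values were for Srrm1 1450045_at, with a difference of 0.19, Srrm1 1454689_at, with 0.14, and Srrm2 1437638_at, with 0.26, all with limma adjusted p = 0.767. Leaving out Dicer cKO replicate 1, the array highest in Slc17a7 and Neurod6, also gave 0 calls.

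**Figure D5:**
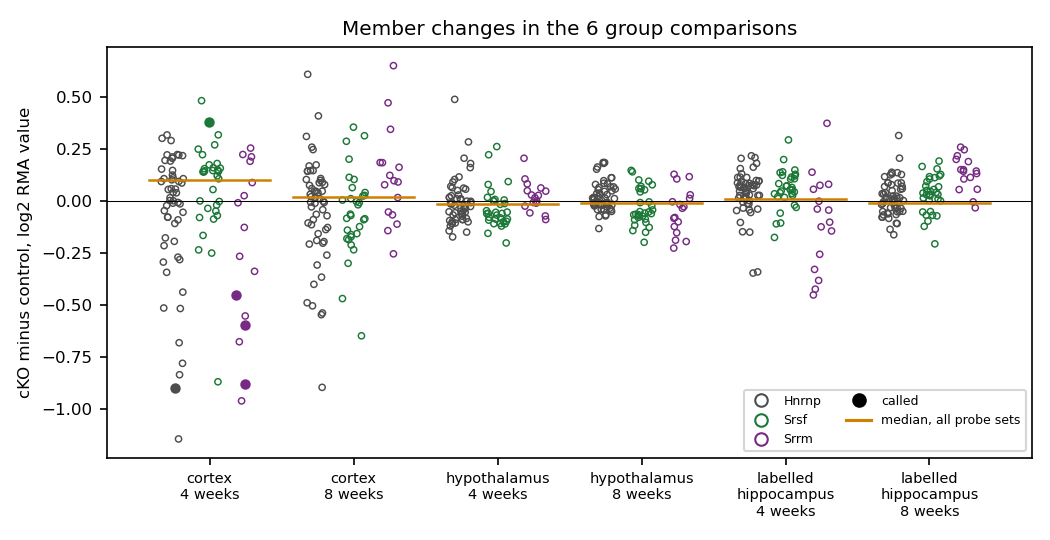
Change (Dicer cKO minus control, log2) of every tested member in the 6 comparisons of tissue and time, by family, with filled points for called members and an orange line for the median of all probe sets. Called members appear only in cortex at 4 weeks, 1 higher and 4 lower.

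Pairs of probe sets of a gene were tested in these 5 comparisons too, and limma called 0 member pairs in each, as did an unmoderated equal-variance test. In cortex at 8 weeks 10 of 157 pairs had an unadjusted p under 0.05, beside 4.44% of all pairs and 0% called. The lowest p-values were in Srsf3 (1438215_at against 1454993_a_at, 0.65), Srsf2 (1415807_s_at against 1427816_at, 0.37) and Srrm1 (1420935_a_at against 1459828_at, 0.91), with limma adjusted p = 0.776. The Dicer cKO arrays of 1459828_at were under the floor, so the size of the Srrm1 difference is not exact.

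In hypothalamus 5 of 166 pairs at 4 weeks had an unadjusted p under 0.05, beside 3.88% of all and 0% called, and 6 at 8 weeks, beside 3.91% and 0%. At 4 weeks the lowest p-values were for Hnrnpr 1438807_at against 1452030_a_at (-0.33), Hnrnpul2 1415765_at against 1434551_at (0.29) and Srsf1 1428100_at against 1452430_s_at (-0.21), with limma adjusted p = 0.949. The same Srsf1 pair came first at 8 weeks, with -0.28, before Srrm4 1435062_at against 1438523_x_at (-0.34) and Srsf1 1430982_at against 1452430_s_at (-0.24).

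In the arrays labelled hippocampus 10 of 157 pairs at 4 weeks had an unadjusted p under 0.05, beside 9.61% of all and 0% called, and 2 at 8 weeks, beside 6.16% and 0%. The lowest p-values at 4 weeks were for Srrm1 1447447_s_at against 1450045_at (0.34), Srrm1 1450045_at against 1454689_at (-0.31) and Hnrnpr 1429232_at against 1452030_a_at (0.55), with limma adjusted p = 0.459. At 8 weeks they were for Srsf1 1430982_at against 1452430_s_at (0.26), Hnrnpr 1427129_a_at against 1437526_x_at (0.25) and Srsf11 1427269_at against 1452371_at (-0.16).

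Whether the change differed between 8 and 4 weeks was tested as an interaction. In cortex limma called 0 of 102 members, beside 0.00381% of all, and 12 had an unadjusted p under 0.05, beside 11.5% of all. The change at 8 weeks minus that at 4 weeks was 0.70 for Hnrnph1 1437267_x_at, 0.58 for Srrm4 1438523_x_at and 0.59 for Srsf3 1438215_at, with limma adjusted p = 0.381. The values of Hnrnph1 and Srsf3 rest in part on arrays under the floor and are not exact.

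In hypothalamus 0 of 103 members were called and 0 had an unadjusted p under 0.05, beside 0% and 4.13% of all, and the lowest p-values were for Hnrnpf 1450963_at (0.27), Srsf9 1417727_at (0.15) and Hnrnpf 1456664_x_at (0.14). In the arrays labelled hippocampus 0 were called and 8 had an unadjusted p under 0.05, beside 0% and 7.47% of all. The lowest p-values were for Srrm1 1450045_at (0.45), Srrm2 1437638_at (0.68) and Srrm4os 1442388_at (0.60), with limma adjusted p = 0.657.

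Within treatment, cortex at 8 weeks was compared with cortex at 4 weeks. Among Dicer cKO arrays limma called 0 members, beside 0% of all, and 12 had an unadjusted p under 0.05, beside 18.2%. The values were 0.63 for Hnrnph1 1437267_x_at (limma adjusted p = 0.197), 0.74 for Hnrnpab 1426114_at (limma adjusted p = 0.201) and 0.40 for Srrm1 1459828_at (limma adjusted p = 0.211). The Dicer cKO arrays of Srrm1 1459828_at were all under the floor at both times, where values have no order, so its 0.40 measures no change. For Hnrnph1 1437267_x_at the 3 arrays of 4 weeks were under the floor, so the size is not exact. Among control arrays limma called 0, beside 0.00381% of all, and 11 had an unadjusted p under 0.05, beside 7.52%. The values were -0.87 for Hnrnpr 1452030_a_at, 0.23 for Srsf6 1447898_s_at and 0.22 for Hnrnpab 1448144_at, with limma adjusted p = 0.655.

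The change in cortex was then set against that in the other tissues at 4 weeks, over all 24 arrays of both tissues, each tissue having been normalized on its own. Cortex and hypothalamus differed in 14 of 101 members, beside 14.8% of all probe sets, so the share was close to the background. Of the 14, 7 were higher in cortex, beside 11.1% of all, and 7 lower, beside 3.75%. With each array centred on its median 3 members and, of all probe sets, 350 higher and 448 lower were called, and after quantile normalization 6 members and 900 higher and 704 lower, against 2855 higher and 968 lower as reported. All 5 members called in cortex were among them. Hnrnph1 1437267_x_at had the lowest p-value, with changes of -0.90 in cortex and 0.21 in hypothalamus and a difference of -1.11 (SE 0.20, limma adjusted p = 0.0519). In hypothalamus it read 7.0, 7.38 and 6.98 in control and 7.44, 7.14 and 7.40 in Dicer cKO, all over the floor, while its 3 Dicer cKO arrays in cortex were under theirs.

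The others lower in cortex were in Srrm1 (1459828_at, -0.65), Srrm2 (1437638_at, -0.92, and 1438688_at, -1.06), Srrm4 (1438523_x_at, -0.51), Hnrnpab (1426114_at, -0.61) and Srsf3 (1438215_at, -0.45). Those higher were in Srsf6 (1416721_s_at, 0.42, and 1416720_at, 0.33), Srsf9 (1417727_at, 0.26), Hnrnpf (1450963_at, 0.39), Hnrnpc (1460240_a_at, 0.24), Hnrnpu (1434390_at, 0.36) and Srrm1 (1447447_s_at, 0.20). Against the arrays labelled hippocampus, which shared no animals with cortex, 1 of 102 members differed, beside 0.794% of all and 0.0963% lower. It was Srrm1 1459828_at, with changes of -0.60 in cortex and -0.00 in the arrays labelled hippocampus and a difference of -0.60 (SE 0.16, limma adjusted p = 0.149). In cortex all 3 Dicer cKO arrays and 1 control array of 4 weeks of this probe set were under the floor. The size of this difference is therefore not measured. The probe set entered the cortex tests only through control arrays, so its calls against hypothalamus and here are given as a description.

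Other genes of splicing were read from lists. Of 180 tested probe sets of 49 other splicing regulators, 6 were called higher and 3 lower in cortex at 4 weeks, with a median change of -0.02 and 80 positive, which is 5% called, beside 4.48% of all probe sets. The lowest p-values were for Celf1 1423932_at (0.50, limma adjusted p = 0.111), a CUG-binding regulator, Rbfox1 1438217_at (-0.99, limma adjusted p = 0.113), a neuronal exon regulator, and Son 1456630_x_at (0.49, limma adjusted p = 0.130), a speckle protein. Of 98 probe sets of 42 core spliceosome genes, 4 were called higher and 0 lower by limma (23 had an unadjusted p under 0.05, 15 of them higher), with a median of 0.05 and 61 positive, which is 4.08% called. They were led by Sf3a3 1423811_at (0.34, limma adjusted p = 0.127) and Sf3a2 1450576_a_at (0.49, limma adjusted p = 0.130), which encode parts of the branch-point recognition complex, and Snrpb2 1452422_a_at (0.32, limma adjusted p = 0.136). Other probe sets of these genes read otherwise in part. Celf1 had -0.36 (limma adjusted p = 0.157) for 1425932_a_at and -0.18, -0.17 and -0.14 for its other 3. The other 6 of Son ran from -0.23 to 0.26, and the other 3 of Rbfox1 were lower too, at -0.31 to -0.05. The changes were -0.08 for Sf3a3 1432488_a_at and -0.12 for Snrpb2 1426613_a_at. Those of Sf3a2 1455546_s_at (0.22) and Snrpb2 1452131_at (0.24) had the sign of the called probe sets.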

How the data were processed

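The authors hybridised RNA to Affymetrix mouse genome 3′ expression arrays and deposited log2 probe set signals after RMA (version not given in the sources used here), which was run for each tissue separately, so that a level cannot be set against that of another tissue. Groups came from the sample titles. Probe sets were named through the platform annotation. The members and all gene lists were chosen with earlier results of these data known.

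For each tissue, probe sets over the signal floor entered a limma (3.58.1, R 4.3.3) model of 4 groups with 12 arrays. The floor was set so that the distinct genes kept reached a number that the study's methods give as probe sets and a legend gives as genes, since the detection calls behind it were not used here. Read as probe sets, it is the stricter floor among the alternatives. Values under the floor have no order, and probe sets of a gene were not collapsed. Benjamini-Hochberg adjustment was over all of them and calls were made at an FDR of 15%. Pairs were tested on the difference between probe sets within an array. For cortex against hypothalamus, the animal was a random block. The smallest exact permutation p for 3 against 3 is 0.1. The scripts were tested on simulated data. Array number and spread limit the precision, and no arrays of a tissue held equal values (highest correlation 0.997 in cortex, 0.998 in hypothalamus and 0.997 in hippocampus).

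Named members were the called, up to 10 a direction, or otherwise the 3 with the lowest p, with the 8 pairs of lowest p in cortex at 4 weeks and 3 elsewhere, the 3 of lowest p of each other splicing list, members that bound a family's range, and other probe sets of a named gene. Members named for an array pattern were chosen after their values were seen.

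Same-numbered replicates correlated, as deviations from group means, at -0.04 to 0.17 in cortex, 0.10, -0.02 and 0.25 in hypothalamus at 4 weeks, 0.19, 0.24 and 0.25 at 8 weeks, and -0.04 to 0.05 in hippocampus. The values were highest in hypothalamus at 8 weeks, but the same animals with the same numbers gave 0.01, -0.01 and 0.17 in cortex. Whether the numbers pair the samples is therefore not settled by this check. Alternatives were stricter FDR, other floors, 1 probe set per gene, centring, quantile normalization, variance trend, array weights, replicate block, only the arrays compared, an equal-variance t-test per probe set (a test the study names for other measures, not for the arrays) and left-out arrays.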

Additional observations from a re-analysis of the deposited data

Results flagged for a closer look

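The difference between the change in cortex and the change in hypothalamus at 4 weeks passed the test in 14 members (limma interaction, adjusted p in the order given).
Lower in cortex were Hnrnph1 1437267_x_at by -1.11 (adjusted p = 0.0519), Srrm4 1438523_x_at by -0.51 (0.082), Srrm1 1459828_at by -0.65 (0.090), Hnrnpab 1426114_at by -0.61 (0.111), Srrm2 1437638_at by -0.92 (0.114), Srrm2 1438688_at by -1.06 (0.118) and Srsf3 1438215_at by -0.45 (0.126).
Higher in cortex were Srsf6 1416721_s_at by 0.42 (0.073), Hnrnpf 1450963_at by 0.39 (0.121), Hnrnpc 1460240_a_at by 0.24 (0.126), Srsf6 1416720_at by 0.33 (0.129), Srsf9 1417727_at by 0.26 (0.138), Srrm1 1447447_s_at by 0.20 (0.147) and Hnrnpu 1434390_at by 0.36 (0.148).
Against the arrays labelled hippocampus, Srrm1 1459828_at differed by -0.60 (adjusted p = 0.149). These are the 4-week changes in tissues normalized separately, and the share of members was close to that of all probe sets in the comparison with hypothalamus. In cortex the Dicer cKO arrays of Hnrnph1 1437267_x_at and Srrm1 1459828_at at 4 weeks were under the floor. So were 2 of 3 of Srsf3 1438215_at, and the sizes of these differences are not exact. Srrm1 1459828_at entered the cortex tests only through control arrays, so its differences are given as a description.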

How the results depend on the processing

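The 5 members called in cortex at 4 weeks became 0 at an FDR of 5%, 2 at 10%, 1 with a floor that keeps the study's number as probe sets rather than genes (the stricter floor), 1 with 1 probe set per gene, 0 centred, 1 after quantile normalization, 55 with array weights, 0 with the replicate block, 0 with only the arrays compared, 0 by the equal-variance t-test and 52 without 3 arrays (chosen after seeing the data), and 0 to 36 with 1 array left out. The 1 pair called there became 0 at an FDR of 5%, with the stricter floor, after quantile normalization, with the replicate block, with only the arrays compared and by the equal-variance t-test, 90 with array weights and 87 without 3 arrays, and 0 to 66 with 1 array left out. The pairs of cortex at 8 weeks went from 0 to 1 with array weights, and those of the arrays labelled hippocampus at 4 weeks to 0 to 3 with 1 array left out (3 without Dicer cKO replicate 1). The cortex interaction gave 32 with array weights, 37 without 3 arrays and 0 to 12 with 1 left out. The Dicer cKO time comparison gave 35, 41 and 0 to 15, and the control time comparison 6, 2 and 0 to 3, and 1 with only the arrays compared. The 14 members of cortex against hypothalamus became 0 at an FDR of 5%, 4 at 10%, 7 with no filter, 6 with 1 probe set per gene, 3 centred, 6 after quantile normalization, 47 with array weights, 7 with the replicate block, 4 with no animal block, 51 without 3 arrays and 0 to 41 with 1 left out. The 1 of cortex against hippocampus became 0 at an FDR of 5% and 10%, with no filter, with the stricter floor, with 1 probe set per gene, centred, with a variance trend with or without robust fitting and with the replicate block, 35 with array weights and without 3 arrays, and 0 to 23 with 1 left out. In the other comparisons the count was 0 under every alternative run, the replicate block changed no other call, and no value reversed. The cause was not tested. In cortex at 4 weeks the calls among all probe sets moved too. They were 13 centred and 81 after quantile normalization, against 1177 as reported. They were 39.9% of all without control replicate 3 and 55.4% without the 3 arrays. Where no share of all probe sets is given beside a count, the count is not read as a result about the members. Each array left out leaves a group of 2, and signal over the floor limits cortex values of Hnrnph1 1437267_x_at (3 of 12 arrays under it), Srrm1 1459828_at (7) and Srsf3 1438215_at (4).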
